A study of Rattus norvegicus with 10 samples.

Results

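The genes described here mark mast cells: the tryptases Tpsab1 and Tpsb2, the chymase Cma1, carboxypeptidase Cpa3, the granule proteases Mcpt1, Mcpt2 and Mcpt10, the IgE receptor subunits Fcer1a and Ms4a2, and histidine decarboxylase Hdc. They were followed in 10 arrays of rat mammary tumours. A gene was taken where a probe set was annotated to it alone, and where it had more than 1, the probe set with the highest mean signal over the 10 arrays was used. By that rule 9 of the 10 genes were measured, out of 14217 genes with a probe set of their own, and Mcpt2 had none under that symbol. The members were chosen by their measured values in the same arrays, since lower signals of mast cell genes in the total tumours were already known from them. Their differences between the groups are therefore given as a description, with no test of their own.

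The tumours were induced in female Sprague-Dawley rats with a single agent, the carcinogen DMBA, given by mouth at 100 mg/kg, and no rat had another treatment. Needle biopsies and, later, total tumours were profiled from 5 tumours, so that each group holds 5 arrays; the labels call the tumours 31D3, 32D1, 37I1, 50I1 and 52I4. Biopsies, 0.7 cm long and 2.5 mm wide, came from rats of 12 weeks whose tumour measured 2 cm3, and total tumours were collected at 19 weeks. The comparison asks how the end state of a tumour differs from its own early biopsy. Whether any of the tumours grew in the same rat is not labelled, so every standard error below refers to these tumours and not to rats. The standard errors are the moderated ones of limma, which draw each gene's variance toward a value shared by all probe sets tested. Age, moment, the way of sampling and an earlier needle biopsy of the same tumour all go with the group, and cannot be told apart. The serial numbers in the sample titles also go with the group, and what they count is not labelled. In whole tissue, fewer mast cells and less RNA per mast cell cannot be told apart either. Array medians lay between 5.99 and 6.12 on the log2 scale. Biopsy 37I1 stood apart in other cell types: it had the lowest biopsy level of T and NK cell, B cell, macrophage, fibroblast, endothelial and adipocyte genes. Values without tumour 37I1 are given for part of the genes and lists.

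Mast cells are tissue-resident cells that store proteases, histamine and heparin-like proteoglycans in granules and release them when IgE on their high-affinity receptor is cross-linked. In rodents, connective tissue mast cells carry tryptases, chymase and carboxypeptidase A3, while mucosal mast cells carry other chymase-like proteases, of which rat Mcpt2 is the classical one. The mammary gland has connective tissue mast cells in its stroma and fat.

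The names of the chymase-like proteases bear on that division. The RefSeq gene table (assembly GRCr8) lists both rMCP-1, the connective tissue chymase, and rMCP-2, the mucosal one, as synonyms of Mcpt1, and it lists rMCP-1 also for a neighbouring copy, Mcpt1l1. The probe set called Mcpt1 here can therefore not be assigned to either class by its name, and Mcpt1l1, measured by a probe set of its own, was described beside it. The same table lists rMCP-10 as a synonym of Mcpt10 and also of Mcpt8. Whether probes of these related genes bind each other's transcripts was not tested. The following sequences set Mcpt1, Mcpt1l1 and some of their relatives beside each other, since their patterns across the arrays are compared below. Cpa3, a carboxypeptidase on another chromosome, is added as a member outside that family. Sequences of Mcpt4 and Mcpt9 are not printed. Each sequence holds the 150 bases before the gene's start, from RefSeq (GRCr8), read 5′ to 3′ in the gene's orientation. Capitals mark GATAA, in either orientation (reverse TTATC), the core letters of sites for GATA factors, and TATAAA on the strand shown.
Cma1, chr15:33390134-33390283, minus strand.
Cma1: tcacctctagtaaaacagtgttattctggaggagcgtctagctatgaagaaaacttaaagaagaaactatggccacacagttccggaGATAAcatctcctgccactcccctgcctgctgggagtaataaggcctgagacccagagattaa
Mcpt1l1, chr15:33876896-33877045, minus strand.
Mcpt1l1: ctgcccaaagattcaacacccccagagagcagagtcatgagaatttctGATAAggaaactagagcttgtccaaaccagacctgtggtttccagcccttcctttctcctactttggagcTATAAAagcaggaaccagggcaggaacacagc
Mcpt1, chr15:33841456-33841605, plus strand.
Mcpt1: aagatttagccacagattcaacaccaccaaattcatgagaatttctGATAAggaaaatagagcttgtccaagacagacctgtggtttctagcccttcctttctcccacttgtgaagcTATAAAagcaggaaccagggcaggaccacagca
Mcpt3, chr15:33501799-33501948, plus strand.
Mcpt3: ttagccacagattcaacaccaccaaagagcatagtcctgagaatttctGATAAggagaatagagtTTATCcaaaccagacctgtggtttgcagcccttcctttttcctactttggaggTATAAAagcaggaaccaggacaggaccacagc
Mcpt8, chr15:33769499-33769648, plus strand.
Mcpt8: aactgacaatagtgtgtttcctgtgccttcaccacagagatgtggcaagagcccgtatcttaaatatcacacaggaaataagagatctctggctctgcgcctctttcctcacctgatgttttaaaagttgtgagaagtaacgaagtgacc
Cpa3, chr2:104673238-104673387, minus strand.
Cpa3: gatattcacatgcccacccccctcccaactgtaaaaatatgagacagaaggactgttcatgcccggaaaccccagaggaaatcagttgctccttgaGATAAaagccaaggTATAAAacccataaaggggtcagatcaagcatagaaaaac

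In a global alignment, the windows of Mcpt1 and Mcpt1l1 were 82.2% identical, over 157 columns, and those of Mcpt1l1 and Mcpt3 88.7%. The windows of Mcpt8 and Mcpt9, a pair of related proteases of the same locus, were 87.3% identical. Cma1, a chymase on the same chromosome, shared 49.7% with Mcpt1. Windows of unrelated genes reached that level too: Cma1 and Hdc, on different chromosomes, shared 50.0%. GATAA on either strand was present in the windows of Tpsab1, Cma1, Cpa3, Mcpt1, Fcer1a, Mcpt1l1, Mcpt3 and Mcpt4, and in 14.2% of all 33469 promoter windows of that length. It was not among the letters of the windows of Tpsb2, Hdc, Mcpt8 and Mcpt9. The members Mcpt10 and Ms4a2 had no window in the promoter source. Windows of Mcpt1, Mcpt1l1, Mcpt3 and Mcpt4 were between 69.5% and 88.7% identical, so their sites are not separate observations. TATAAA on the given strand was present in 5.2% of all windows, and in those of Cpa3, Mcpt1, Mcpt1l1, Mcpt3, Mcpt4 and Fcer1a.

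All 9 measured members had a lower mean signal in total tumours than in biopsies, where 48.7% of the 10793 genes tested did. The median difference was -0.83 on the log2 scale over the members and 0.00 over all genes tested. In 3 members, Tpsab1, Cma1 and Cpa3, the total tumour was below its own biopsy in every pair, which held for 3.42% of all genes. In none of the 9 did the groups separate without overlap, against 0.306% of all genes, and 8 members were lower at an unadjusted p under 0.05 in limma, against 2.56%. Because these differences chose the members, the shares are printed for scale and nothing is read from them. No probe set passed an adjusted p of 0.05 in limma over the 18625 tested (0% called), and the adjusted p of the members lay between 0.642 and 0.973.

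**Figure D1:**
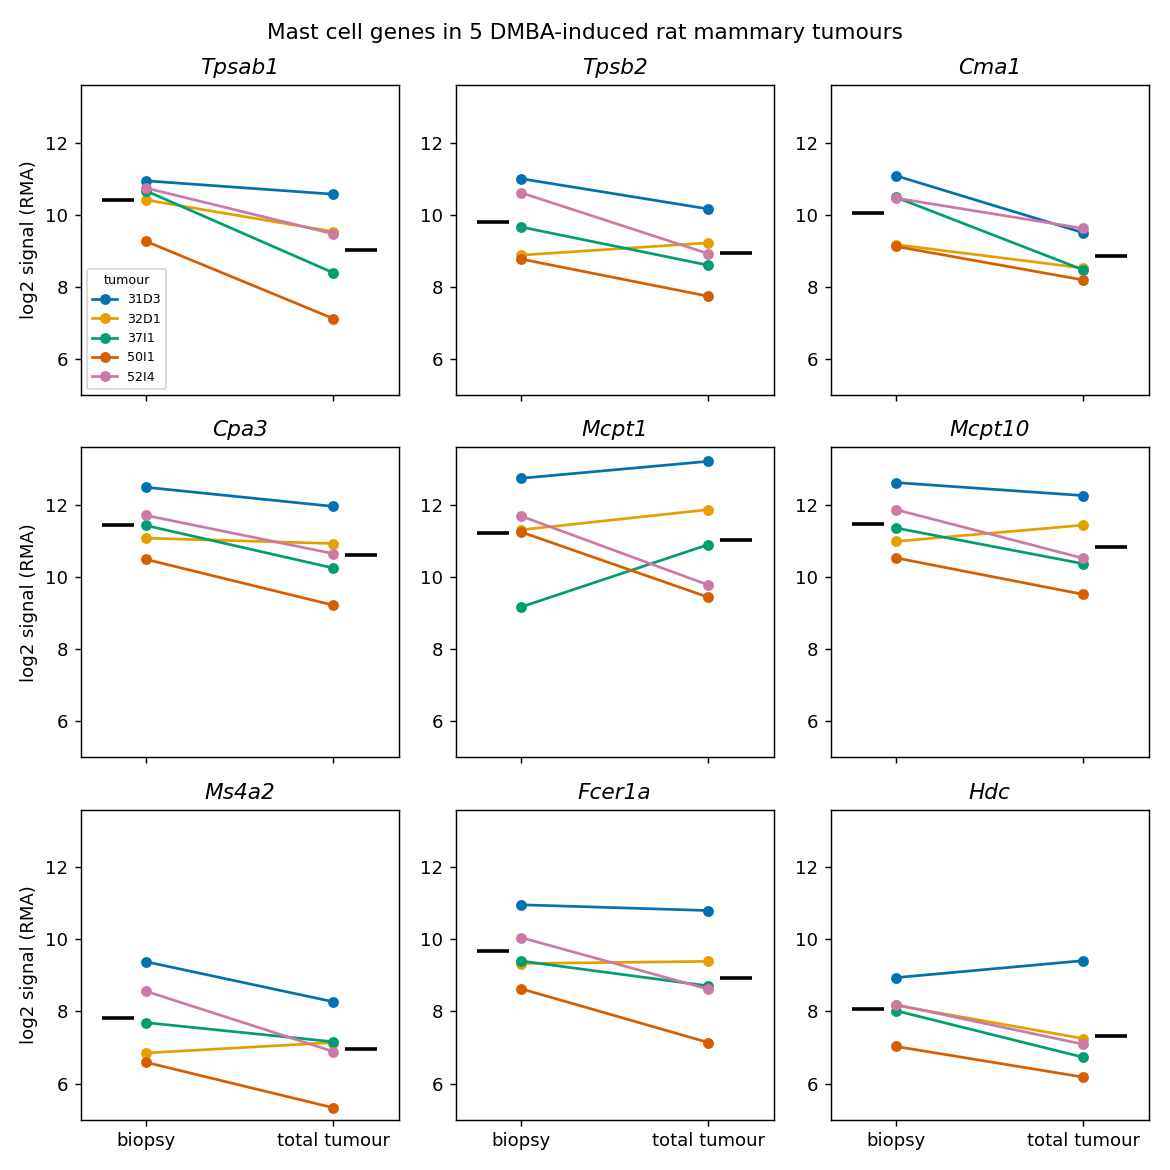
Log2 signal (RMA) of each measured member in the biopsy (left) and total tumour (right) of each tumour; lines join the samples of a tumour and black bars are the means of 5. Lines run downward in every tumour for Tpsab1, Cma1 and Cpa3, and cross for Mcpt1, which was lower in 2 of 5.

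Tpsab1 encodes a tryptase, the trypsin-like protease stored in mast cell granules. Its log2 signal was 10.94, 10.41, 10.66, 9.26 and 10.74 in the biopsies of 31D3, 32D1, 37I1, 50I1 and 52I4, and 10.57, 9.53, 8.39, 7.12 and 9.47 in the total tumours in the same order. Tumour 50I1 was lowest in both groups, and the groups overlapped: the total tumours of 31D3, 32D1 and 52I4 exceeded biopsy 50I1, and that of 31D3 also biopsy 32D1. The means were 10.40 ± 0.67 and 9.02 ± 1.31 (SD, n = 5), which is -1.39 (SE 0.297), or 2.62-fold lower in the later sample. The difference within a tumour ranged widely, from -0.38 in 31D3 to -2.27 in 37I1. With a tumour left out, the mean difference lay between -1.64 (without 31D3) and -1.17 (without 37I1).

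Tpsb2 encodes the other granule tryptase. Its biopsies read 11.00, 8.88, 9.66, 8.77 and 10.61, and its total tumours 10.16, 9.22, 8.60, 7.74 and 8.92. The total tumour was the lower sample in 4 of 5 tumours and the higher one, by 0.33, in 32D1. The mean difference was -0.86 (SE 0.272).

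Cma1 encodes the chymase, a chymotrypsin-like protease of connective tissue mast cells. Signals were 11.08, 9.17, 10.48, 9.12 and 10.46 in the biopsies and 9.50, 8.52, 8.47, 8.19 and 9.62 in the total tumours. The 3 biopsies of 31D3, 37I1 and 52I4 lay above every total tumour, whereas those of 32D1 and 50I1 lay among them. The mean was 10.06 ± 0.88 in biopsies and 8.86 ± 0.65 in total tumours, which is -1.20 (SE 0.217), or 2.30-fold lower.

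Cpa3 encodes mast cell carboxypeptidase A, which trims C-terminal residues of peptides. It read 12.49, 11.08, 11.43, 10.49 and 11.71 in biopsies and 11.96, 10.93, 10.25, 9.22 and 10.65 in total tumours. The difference was -0.83 (SE 0.187), and within tumours it ranged from -0.15 in 32D1 to -1.26 in 50I1. Tumour 31D3 was highest and 50I1 lowest in both groups, which overlapped.

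The chymase-like proteases of the Mcpt family did not share one pattern. Mcpt10 kept the order of the tryptases, with 12.62, 10.99, 11.36, 10.53 and 11.87 in biopsies and 12.26, 11.44, 10.37, 9.52 and 10.52 in total tumours, and a difference of -0.65 (SE 0.263). It was lower in 4 of 5 tumours and, like Tpsb2, higher in 32D1, by 0.45. Mcpt10 is one of the granule proteases of the Mcpt8 group, described in mucosal mast cells.

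Mcpt1 differed in both directions. Its biopsies were at 12.74, 11.31, 9.17, 11.25 and 11.69 and its total tumours at 13.21, 11.87, 10.90, 9.44 and 9.78. The total tumour was higher in 31D3 by 0.47, in 32D1 by 0.56 and in 37I1 by 1.74, and lower in 50I1 and 52I4, by -1.81 and -1.91. The mean difference of -0.19 (SE 0.570) had no stable sign: it was 0.21 without tumour 50I1, 0.24 without 52I4 and -0.67 without 37I1.

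Mcpt1l1, the copy that RefSeq also calls rMCP-1, was lower in the total tumour in every pair. It read 12.49, 10.77, 11.81, 10.07 and 11.46 in biopsies and 10.42, 9.98, 9.60, 9.63 and 11.19 in total tumours. The difference was -1.16 (SE 0.334, adjusted p = 0.657 in limma), and it did not pass. It was -1.38 without 52I4 and -0.89 without 37I1, the ends of the range with a tumour left out. The largest differences, -2.07 in 31D3 and -2.22 in 37I1, were in the same tumours as those of Cma1, -1.58 and -2.01. In 31D3 and 37I1 Mcpt1 lay on the other side, higher in the total tumour.

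**Figure D2:**
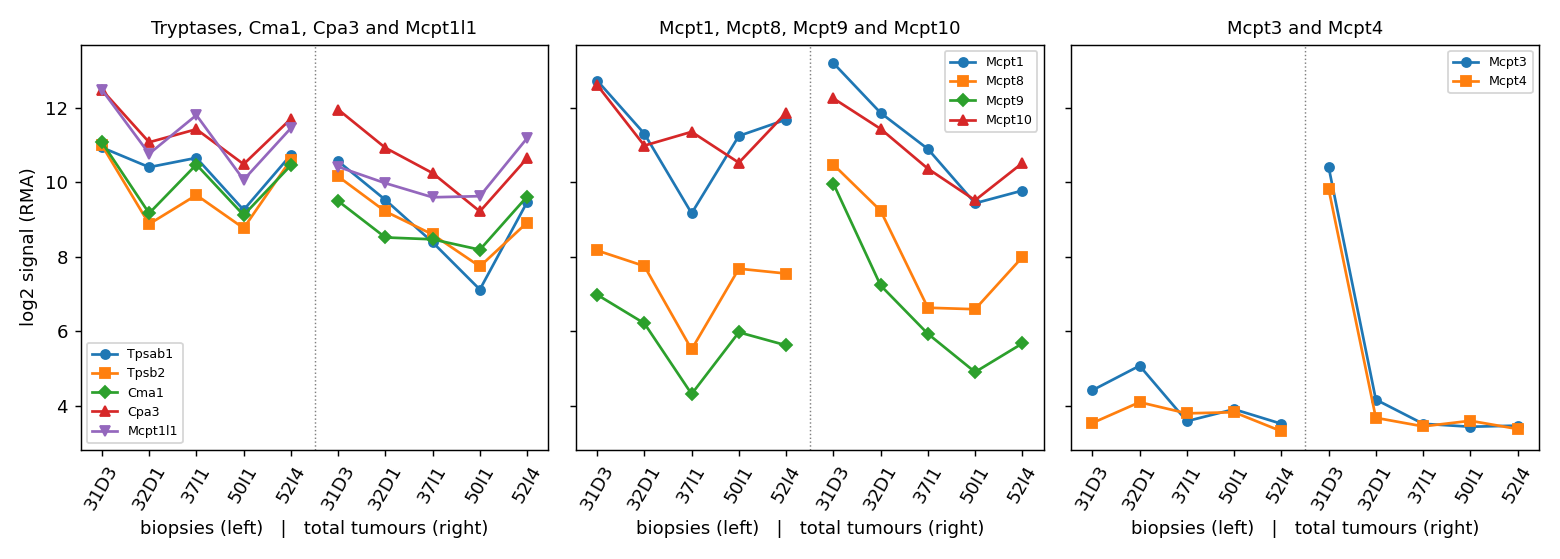
Log2 signal (RMA) of mast cell proteases in the 5 biopsies (left of the dotted line) and 5 total tumours (right) of each panel; lines only help to follow a gene and imply no order. In the left panel the genes share highs and lows, in the middle panel Mcpt1, Mcpt8 and Mcpt9 share a low in biopsy 37I1 that Mcpt10 lacks, and in the right panel only total tumour 31D3 stands out.

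Of 18 other protease genes of mast cells and related granules on the list used here, 8 had a probe set of their own and 4 of these passed the filter on dim probe sets. Of the 4, Mcpt1l1 was lower and Mcpt8, Mcpt9 and Gzmb were higher on average in the total tumours, with a median difference of 0.89. None passed the test. Gzmf and Gzmn stayed between 2.87 and 3.32 in every array.

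Mcpt8 encodes a granule protease of the same group as Mcpt10, with a mouse counterpart that marks basophils. It was at 8.17, 7.75, 5.51, 7.68 and 7.55 in biopsies and 10.48, 9.24, 6.63, 6.59 and 7.99 in total tumours, higher in 4 of 5 tumours, by 0.85 on average (SE 0.456, adjusted p = 0.846 in limma). Mcpt9, its close relative, was at 6.98, 6.21, 4.31, 5.97 and 5.62 and at 9.97, 7.23, 5.93, 4.90 and 5.67, a difference of 0.92 (SE 0.548, adjusted p = 0.854 in limma). Both differences leaned on single tumours: they were 0.49 and 0.41 without 31D3, and 1.34 and 1.42 without 50I1. Mcpt10, of the same group, differed by -0.65, so these relatives did not share a direction.

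Mcpt3 and Mcpt4, further chymase-like genes, were dim in all arrays but 1. Mcpt3 read 10.42 in total tumour 31D3 and between 3.43 and 5.07 in the other 9 arrays. Mcpt4 read 9.83 in that tumour and between 3.31 and 4.09 elsewhere. Neither was tested, as their means over all arrays were under the limit of 5.15. Gzmb, the granzyme of cytotoxic lymphocytes, was likewise highest in total tumour 31D3, at 10.45, with the next array at 6.67. Its mean difference of 1.64 (SE 0.833, adjusted p = 0.846 in limma) was 0.65 without that tumour. Biopsy 31D3 read 4.41 for Mcpt3, 3.53 for Mcpt4 and 4.89 for Gzmb.

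**Figure D3:**
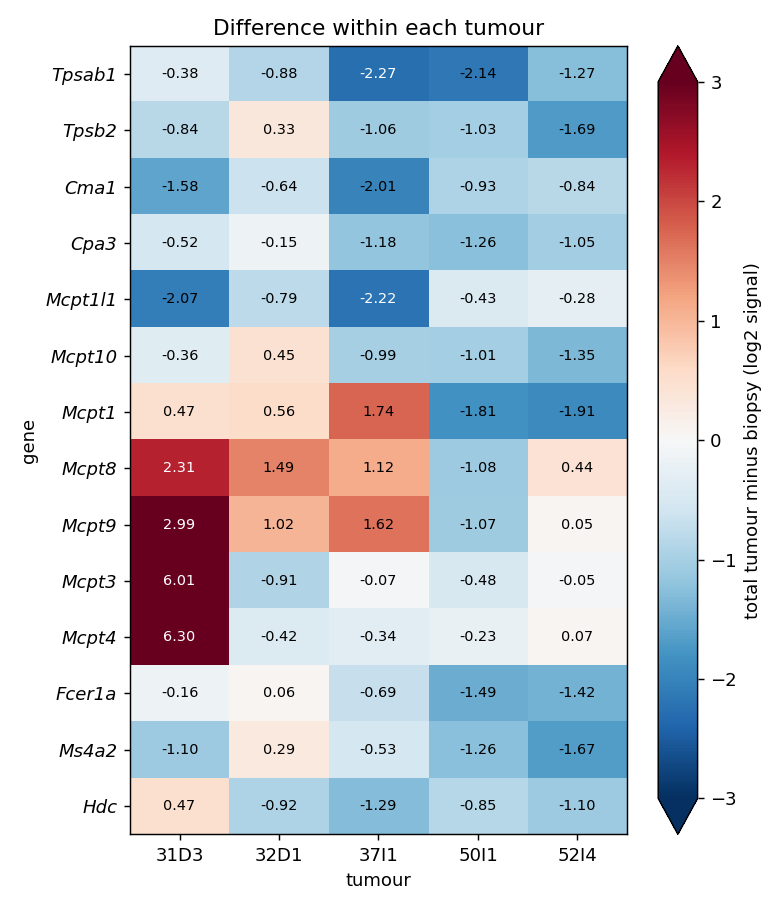
Total tumour minus biopsy (log2 signal) for each gene (rows) and tumour (columns); blue is lower and red higher in the total tumour, and the colour scale ends at 3. Tryptases, Cma1, Cpa3 and Mcpt1l1 are blue in nearly all tumours, while Mcpt1, Mcpt8 and Mcpt9 are red in 31D3, 32D1 and 37I1 and Mcpt3 and Mcpt4 differ by 6.01 and 6.30 in 31D3.

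The IgE receptor is built from Fcer1a, which binds IgE, Ms4a2, the beta chain that amplifies the signal, and Fcer1g, the gamma chain shared with Fc receptors of other leukocytes. Fcer1a read 10.96, 9.33, 9.40, 8.63 and 10.05 in biopsies and 10.80, 9.39, 8.71, 7.14 and 8.62 in total tumours. It was lower in 4 of 5 tumours, and the 2 samples of 32D1 differed by 0.06. The mean difference was -0.74 (SE 0.261), most of it in 50I1 and 52I4, with -1.49 and -1.42.

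Ms4a2 read 9.38, 6.85, 7.69, 6.59 and 8.56 in biopsies and 8.27, 7.14, 7.16, 5.33 and 6.89 in total tumours. Its difference was -0.85 (SE 0.279), lower in 4 of 5 tumours, and a second, dimmer probe set of the gene gave -1.09, also lower in 4 of 5. Fcer1g, which is no member, read 11.23, 10.85, 9.79, 11.25 and 10.79 and then 11.51, 10.86, 11.03, 9.89 and 10.11. Its difference of -0.10 (SE 0.355, adjusted p = 0.977 in limma) turned to 0.21 without 50I1 and 0.04 without 52I4. So the 2 chains of mast cells and basophils were lower in 4 of 5 tumours, and the shared chain in 2 of 5; the difference between the chains was not tested.

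Hdc, which makes histamine from histidine, read 8.94, 8.17, 8.02, 7.03 and 8.19 in biopsies and 9.41, 7.25, 6.73, 6.18 and 7.09 in total tumours. Only in 31D3 was the total tumour higher, by 0.47. The mean difference was -0.74 (SE 0.257).

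Downstream of the receptor, 16 of 20 signalling genes on the list were tested, 11 with a lower and 5 with a higher mean in total tumours, with a median of -0.06, and none passed. Without 50I1 the count was 6 lower and 10 higher, with a median of 0.04. The smallest p belonged to Plcg2, a phospholipase, with a difference of 0.25 (SE 0.0956, adjusted p = 0.789 in limma), higher in 5 of 5. The kinases Lyn and Syk differed by 0.16 (SE 0.188) and -0.03 (SE 0.225); Lyn came to -0.04 without 37I1, and Syk to 0.19 without 50I1, to 0.06 without 52I4 and to 0.01 with quantile normalization.

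Among histamine and granule mediator genes, 10 of 15 were tested, Hdc included, 7 lower and 3 higher, with a median of -0.22, and none passed. That median was -0.11 without 50I1 and -0.37 without 31D3. Ltc4s, the synthase of leukotriene C4, was higher in 5 of 5 tumours by 0.83 (SE 0.221, adjusted p = 0.642 in limma). Hpgds, which makes prostaglandin D2, was lower in 5 of 5 by -0.53 (SE 0.158, adjusted p = 0.674 in limma). Slc18a2, the transporter that loads amines into vesicles, differed by -0.51 (SE 0.201), by -0.31 without 52I4, and in its other probe sets by -0.63 and -0.65. Alox5, the first enzyme of leukotriene synthesis, differed by -0.78 (SE 0.338, adjusted p = 0.829 in limma). Srgn, the core of granule proteoglycans, differed by -0.10 (SE 0.188) and by 0.02 without 50I1 or 0.01 without 52I4. Tph1, on the list for serotonin synthesis, had no probe set of its own.

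Genes of mast cell growth and identity gave 8 lower and 5 higher among 13 tested of 22, with a median of -0.13, and none passed. Without 50I1 the count was 6 lower and 7 higher, with a median of 0.01, and without 37I1 11 lower and 2 higher, with a median of -0.26. Milr1, an inhibitory receptor of mast cells, was lower in 5 of 5 by -0.76 (SE 0.189, adjusted p = 0.642 in limma). Il1rl1, the IL-33 receptor, differed by -0.73 (SE 0.285, adjusted p = 0.798 in limma), but its other probe set by -0.16. Kit, the receptor for stem cell factor, read 7.66, 6.39, 7.43, 7.40 and 7.09 in biopsies and 6.81, 5.59, 8.98, 7.68 and 7.43 in total tumours, a difference of 0.11 (SE 0.358) that was -0.26 without 37I1. Kit is also made by mammary epithelial cells, and its signal did not follow the proteases (r = -0.22 with their index, described next). Its ligand Kitlg differed by 0.02 (SE 0.163) and came to -0.09 without 32D1, to -0.07 without 50I1 and to between -0.31 and -0.03 in its other probe sets. The transcription factor Gata2 differed by -0.23 (SE 0.204), by -0.05 without 52I4, by -0.41 without 32D1, and by 0.07 in a second, dimmer probe set. Mitf differed by 0.14 (SE 0.327), and by -0.45 in another probe set, by -0.09 without 31D3 and by -0.08 without 37I1. Gata1, between 3.43 and 5.20, was under the limit and not tested.

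To describe how the genes varied together, an index was formed as the mean of the centred log2 signals of Tpsab1, Tpsb2, Cma1 and Cpa3. It was 1.49, -0.00, 0.67, -0.48 and 0.99 in the biopsies and 0.66, -0.34, -0.96, -1.82 and -0.22 in the total tumours, a range of 3.31. Tumour 31D3 had the highest index in both groups and 50I1 the lowest. The order was nearly the same for single members: 31D3 had the highest biopsy signal in 9 of 9 and the highest total tumour signal in 8 of 9, with 52I4 highest for Cma1. Tumour 50I1 had the lowest biopsy signal in 8 of 9, with 37I1 lowest for Mcpt1, and the lowest total tumour signal in 9 of 9.

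All correlations below are Pearson coefficients over the 10 arrays, given as a description with no p, since the 10 arrays come from 5 tumours and share the group difference. The 6 pairs of the 4 index genes had coefficients between 0.82 and 0.96, with a median of 0.86, and after the group means were taken out the median was 0.84. The 8 measured members other than Mcpt1 gave coefficients between 0.70 and 0.98 over 28 pairs, with a median of 0.90. The highest were those of Cpa3 with Mcpt10 and with Fcer1a, of Mcpt10 with Fcer1a and of Tpsb2 with Ms4a2, each 0.98. Mcpt10, listed here as mucosal, followed the index of the connective tissue proteases with 0.93.

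Cma1 had its highest coefficient with Mcpt1l1, with 0.96, and the remaining coefficients of Mcpt1l1 with measured members were between 0.11 and 0.78. Mcpt1 had coefficients between 0.23, with Cma1, and 0.78, with Fcer1a, a median of 0.65 over the other 8 members, and 0.53 with the index. That last value depended on single tumours: it was 0.24 without 31D3 and 0.78 without 37I1. Mcpt1 and Mcpt1l1, whose promoter windows are shown above, had 0.11, with -0.23 without 31D3, -0.09 without 50I1 and 0.37 without 37I1. Mcpt1 was closer to Mcpt8, with 0.80, and to Mcpt9, with 0.85, and those with each other had 0.93. Without 31D3, Mcpt1 had 0.71 with Mcpt8 and 0.83 with Mcpt9. Its coefficients with Fcer1a, 0.78, and Mcpt10, 0.74, were near that with Mcpt8. With the index, Mcpt8 had 0.27 and Mcpt9 0.31, and after the group means were taken out 0.59 and 0.63. In the same way Mcpt1 came to 0.59 with the index, 0.88 with Mcpt8 and 0.93 with Mcpt9.

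**Figure D4:**
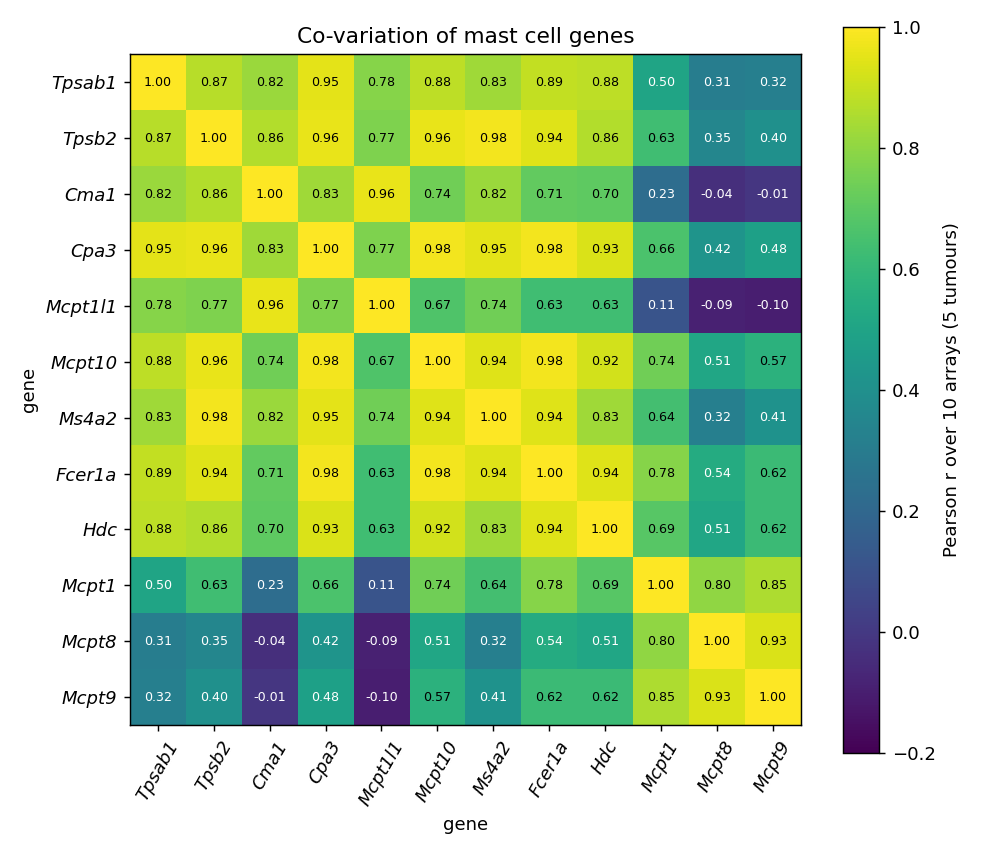
Pearson correlation over the 10 arrays between each pair of mast cell genes, in rows and columns; the arrays come from 5 tumours. A block of high values runs from Tpsab1 to Hdc, Cma1 and Mcpt1l1 form a pair at 0.96, and Mcpt1, Mcpt8 and Mcpt9 form a second block between 0.80 and 0.93. The blocks are not sharply apart: Mcpt1 had 0.78 with Fcer1a and 0.74 with Mcpt10. The group difference is part of all these values.

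The genes outside the set whose pattern was most like the index, of 10784 compared, were Milr1 (0.97), Gcsam (0.92), Hpgds (0.92), Slc18a2 (0.92), Kpna4 (0.87), Trdmt1 (0.87), Ddc (0.86) and Adgrg3 (0.86). Kpna4, an importin, spanned only 0.30 log2 units, whereas Milr1 ranged over 2.83. The 5 most like Mcpt1 were Tubb2b (0.97), Hcst (0.97), Evi2b (0.95), Stat4 (0.94) and Cxcr3 (0.94). Hcst, Stat4 and Cxcr3 are best known from lymphocytes: an adaptor of NK cell receptors, a transcription factor of cytokine signals and a chemokine receptor. Some related genes named above were nearly as close to Mcpt1: Fcer1g had 0.92, Srgn 0.91 and Alox5 0.91. Others were not, with -0.32 for Kit, -0.07 for Lyn and -0.02 for Kitlg.

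Markers of other leukocytes were set beside both patterns. The mean level of 13 tested T and NK cell genes was 7.10, 6.94, 5.07, 7.40 and 6.88 in biopsies and 8.87, 6.58, 6.86, 5.98 and 6.12 in total tumours. The difference within a tumour was 1.77 in 31D3, -0.36 in 32D1, 1.79 in 37I1, -1.42 in 50I1 and -0.76 in 52I4, the same sign as for Mcpt1 in all but 32D1. Over all tumours 3 of these genes were lower and 10 higher in total tumours, with a median of 0.14, but this had no stable sign: it was 10 lower and 3 higher without 37I1, with a median of -0.24, and 12 lower and 1 higher without 31D3, with a median of -0.20. The coefficient with this level was 0.86 for Mcpt1, with 0.83 without 31D3, 0.80 for Mcpt8, and 0.88 for Mcpt9, with 0.69 without 31D3. For the index it was 0.24, with -0.09 without 31D3 and 0.50 without 37I1. Mcpt1 was as close to mast cell lists, with 0.88 for growth and identity genes and 0.86 for mediator genes. The index had 0.61 and 0.82 with those lists. The part of these cells in the signals was not tested.

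**Figure D5:**
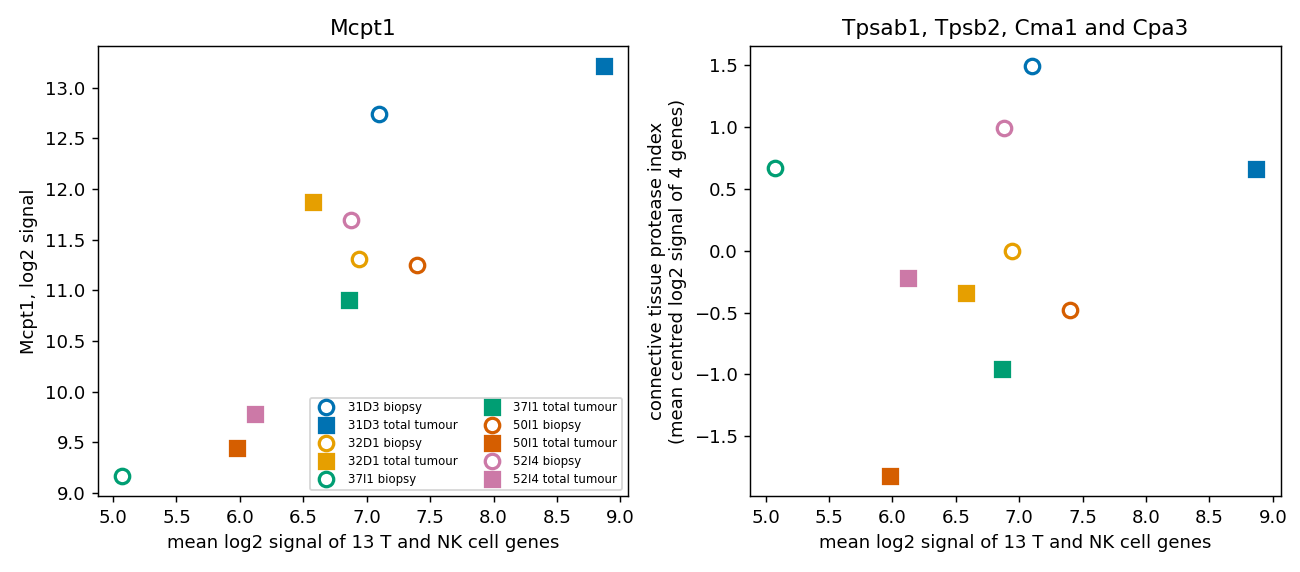
Log2 signal of Mcpt1 (left) and the index of Tpsab1, Tpsb2, Cma1 and Cpa3 (right) against the mean log2 signal of 13 T and NK cell genes, 1 point per array; circles are biopsies, squares total tumours, colours tumours. On the left the points run from biopsy 37I1 (5.07, 9.17) up to total tumour 31D3 (8.87, 13.21), and on the right biopsy 37I1 lies at 0.67 despite its low T and NK cell level.

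The level of 13 macrophage genes lay between 8.24 and 10.11 in biopsies and between 8.59 and 10.27 in total tumours. Of these genes 7 were lower and 6 higher, 11 and 2 without 37I1, and 0 and 13 without 50I1. The level had a coefficient of 0.80 with Mcpt1 and 0.12 with the index. The list of IgE receptor signalling genes, most of which other leukocytes also use, had 0.93 with Mcpt1 and 0.51 with the index. Of 8 eosinophil and basophil genes with a probe set, 3 were tested, all chemokines or a lipoxygenase that other cells also make, and their level lay between 4.42 and 8.45 in biopsies and between 6.20 and 8.58 in total tumours. The level of these 3 genes had a coefficient of 0.75 with Mcpt8, 0.73 with Mcpt1 and -0.03 with the index. The eosinophil granule gene Epx had group means of 3.80 ± 0.24 and 3.92 ± 0.22 (SD, n = 5), under the limit of 5.15. Prg2 exceeded that limit only in tumour 32D1, at 5.45 in the biopsy and 6.20 in the total tumour. Ccr3, on the same list, exceeded it in biopsy 50I1, at 5.37, and in total tumour 31D3, at 5.22. Smooth muscle and pericyte genes had lower means in total tumours in 10 of 11 tested, with a median difference of -0.36, which was -0.21 without 37I1, and their level was lower in 5 of 5 tumours. Tagln, an actin-binding protein of smooth muscle, had the smallest p on that list, with -0.38 (SE 0.093, adjusted p = 0.642 in limma), and none of the list passed. Their level had a coefficient of 0.35 with the index and -0.33 with Mcpt1. Fibroblast genes had higher means in 13 of 13, with a median of 0.49, but in 11 of 13 without 37I1, with a median of 0.14, and in 9 of 13 without 52I4, with 0.26; without 50I1 the median was 1.06. Their level differed by 0.90, -0.34, 1.89, -1.22 and 1.40 in the 5 tumours, and had a coefficient of -0.28 with the index. The part of these cell types in the lower mast cell signals was not tested.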

How the data were processed

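Log2 signals of 31099 probe sets on Affymetrix rat arrays were used as deposited; the authors normalized them with RMA, per the submitters' processing notes, which removes a shift shared by most transcripts. The chip definition and RMA version were not given in the sources used here. Control probe sets (57) were left out. Genes were named from the platform annotation where a probe set had 1 gene (20826 probe sets; 436 had several and 9780 none listed), with symbols updated through RefSeq. A probe set shared by Mcpt8, Mcpt9, Mcpt10 and Mcpt8l2 was not used.

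The dimmest 40% by mean signal over all arrays, under 5.15, were left out, which kept 18625 probe sets of 10793 genes. The groups were compared with limma 3.58.1 (lmFit, eBayes; R 4.3.3) with a tumour block. Benjamini-Hochberg adjustment ran over all probe sets tested, with a threshold of 0.05. The pairing comes from the tumour names in the labels. Deviations from group means correlated above 0.1 in 4 of 5 labelled pairs, and between -0.22 and 0.35. Unmatched samples reached 0.40, for biopsy 50I1 with total tumour 31D3, so these values do not settle the pairing. A list's level is the mean log2 signal of its tested genes. Correlations and promoter alignments were computed in Python 3.11.15 with Biopython 1.88. The fit was tested on simulated data.

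The members and lists were chosen with earlier results of these data known. Named genes are all members, 14 genes of IgE signalling, mediators and growth and the smallest p of each related list. The 8 genes most like the index and the 5 most like Mcpt1 were named too. Mcpt3, Mcpt4, Mcpt8, Mcpt9, Gzmb, Gzmf, Gzmn, Epx, Prg2, Ccr3 and Tagln were named after their values were seen. Alternatives were other filters, normalizations, weights and probe sets, no block, the methods' paired test and leaving out each tumour.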

Additional observations from a re-analysis of the deposited data

Results flagged for a closer look

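Among 41 genes, each looked at in both groups (82 groups of 5 arrays), 6 held an array whose gap to its nearest neighbour exceeded 0.71 of the group's range, the critical value of Dixon's test. In independent groups chance gives about 1 in 20. The groups here are not independent: Stat4 and Cxcr3 were included for their likeness to Mcpt1, itself lowest in biopsy 37I1. The count of 6 is therefore not read against that share. In the total tumours, Mcpt3 stood at 10.42 in 31D3 against 4.16 in the next array, and Mcpt4 at 9.83 against 3.67. Lyn, a kinase of the IgE receptor, stood at 8.99 in total tumour 37I1 against 8.28. In the biopsies, Mcpt8 was lowest in 37I1, at 5.51 against 7.55, as were Stat4, at 4.48 against 5.64, and Cxcr3, at 4.92 against 6.80. None of the 9 measured members had such an array.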

How the results depend on the processing

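No probe set was called in limma at an adjusted p under 0.05, while 1133 of 18625 had an unadjusted p under 0.05; the methods' paired test gave 1013 and, after Benjamini-Hochberg, 0. Over 14 settings, 108 of 110 member differences kept their direction and none passed; the lowest adjusted p was 0.46, with array weights. Mcpt1 ranged from -0.67 to 0.24 when a tumour was left out. Without the tumour as a block (no pairing) Tpsab1 kept -1.39 with an SE of 0.583 (adjusted p = 0.999 in limma), and no call changed. The median coefficient of the 4 index genes was 0.92 as Spearman's rho and between 0.81 and 0.93 with a tumour left out, that of Mcpt1 with the index between 0.24 and 0.78, and that of Mcpt10 with it 0.85 as rho and between 0.88 and 0.96 with a tumour left out. The alternatives for related genes and lists were added after seeing the data. With a tumour left out, Mitf ranged from -0.09 to 0.44, Kitlg from -0.09 to 0.12, Kit from -0.26 to 0.34, Lyn from -0.04 to 0.26, Fcer1g from -0.44 to 0.21, Srgn from -0.27 to 0.02, Gata2 from -0.41 to -0.05, Slc18a2 from -0.67 to -0.31 and Syk from -0.16 to 0.19, the index with T and NK cell genes from -0.09 to 0.50, and Mcpt1 with Mcpt1l1 from -0.23 to 0.37. List medians ranged from -0.24 to 0.57 for T and NK cell, -0.41 to 0.38 for macrophage, 0.14 to 1.06 for fibroblast, -0.39 to -0.21 for smooth muscle, -0.09 to 0.04 for IgE signalling, -0.37 to -0.11 for mediator and -0.26 to 0.01 for growth genes. Syk was 0.01 with quantile normalization and 0.00 with median centring. Mitf was -0.05 with array weights, -0.16 as the mean of its probe sets and -0.45 in another one. Kitlg was -0.13 as the mean and -0.03, -0.22 and -0.31 in others, and Gata2 was 0.07 in its other one. The cause of these changes was not tested. The number of arrays limits the precision.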
